A study of Mus musculus with 12 samples.

Results

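Genes that mark T cells and natural killer (NK) cells were followed in bulk liver RNA. They were taken as a fixed list of symbols, Cd3d, Cd3e, Cd3g, Cd4, Cd8a, Gzma, Gzmb, Prf1, Nkg7 and Ncr1, and were found by matching the Entrez identifiers of the count table to mouse symbols. All 10 were among the 27179 genes of the table, and 9 were among the 13947 genes that passed the filter on low counts, the exception being Ncr1. Every one of them was scarce. In the 12 libraries the 10 genes together held between 67 and 250 reads, of library totals between 19476209 and 31990267.

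T cells read antigen through the T cell receptor, whose chains signal through the CD3 proteins. The co-receptor CD4 marks T helper cells and the co-receptor CD8 marks cytotoxic T cells. Cytotoxic T cells and NK cells kill by releasing granules, in which perforin opens the membrane of the target cell and granzymes trigger its death, and the liver is rich in resident NK cells and other innate lymphocytes.

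The study asked whether less dietary protein changes liver cancer driven by oncogenes. Adult male mice ate chow (CD) or a low-protein diet (LPD) before and after Sleeping Beauty hydrodynamic tail vein injection (SB-HTVI), in which transposon plasmids are forced from the tail vein into hepatocytes. The 4 groups were CD Vec and LPD Vec, injected with vector control, and CD c-MET/β-catenin and LPD c-MET/β-catenin, injected with plasmids for human c-MET and for a β-catenin that lacks its N terminus and stays active, both driven by an EF1α promoter. All groups were harvested when the oncogene mice on CD reached their end point, with n = 3 mice in each group, so the oncogene livers on the 2 diets shared a harvest time and not a tumor stage. Only the hepatocytes that take up the plasmids carry the oncogenes, in mice with their own immune system. The labels title the Vec livers WT, and the injection of vector is taken from the study's text. They give neither strain nor age, and the study's own text names more than 1 genetic background. The labels call the cell type hepatocyte while the source is whole liver, and leukocyte genes were present in every library. In such bulk RNA, fewer cells of a type and less RNA per cell cannot be told apart.

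Numbers carried by the columns of the count table fell into 3 runs, which the labels do not explain. CD c-MET/β-catenin replicates 1 and 2 formed 1 run by themselves, LPD Vec replicate 1 formed another with replicates 1 and 2 of CD Vec, and the other 7 libraries, with at least 1 of each group, formed the last. Levels are given as raw read counts, as CPM, which are read counts scaled to a common library size by the trimmed mean of M values (TMM), or per kilobase of exon as RPKM. A gene was called when its adjusted p was under 0.05 in the edgeR quasi-likelihood test over all 13947 genes, and fold changes are on the log2 scale with their standard error (SE).

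On CD, the livers with oncogenes held more Cd8a and more Gzma than the Vec livers, while Cd4 passed the test in the other direction. These 3 of the 9 tested genes were called, at a background of 35.4% of all tested genes, so the number called does not set the T and NK genes apart. By direction, 2 of 9 were higher (background 18.7%) and 1 of 9 was lower (background 16.7%). Among the 2172 tested genes with a mean level in the range of these 9, from 0.314 to 1.57 CPM, 23.9% were called higher and 7.09% lower. The median log2 fold change of the 9 was 0.57, beside -0.01 for all tested genes. The libraries of the 2 groups were separated for 2 of the 9 genes, Cd8a and Gzma, both with the oncogene group higher, where 22.2% of all tested genes were separated in that direction, and 0 of 9 in the opposite direction (background 20.4%). Above 0 were 7 of the 9 fold changes, and 49.4% of those of all tested genes. With a term for the runs 5 of the 9 were above 0, with a median of 0.35, as Cd3d and Prf1 turned to -0.76 and -1.69.

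**Figure D1:**
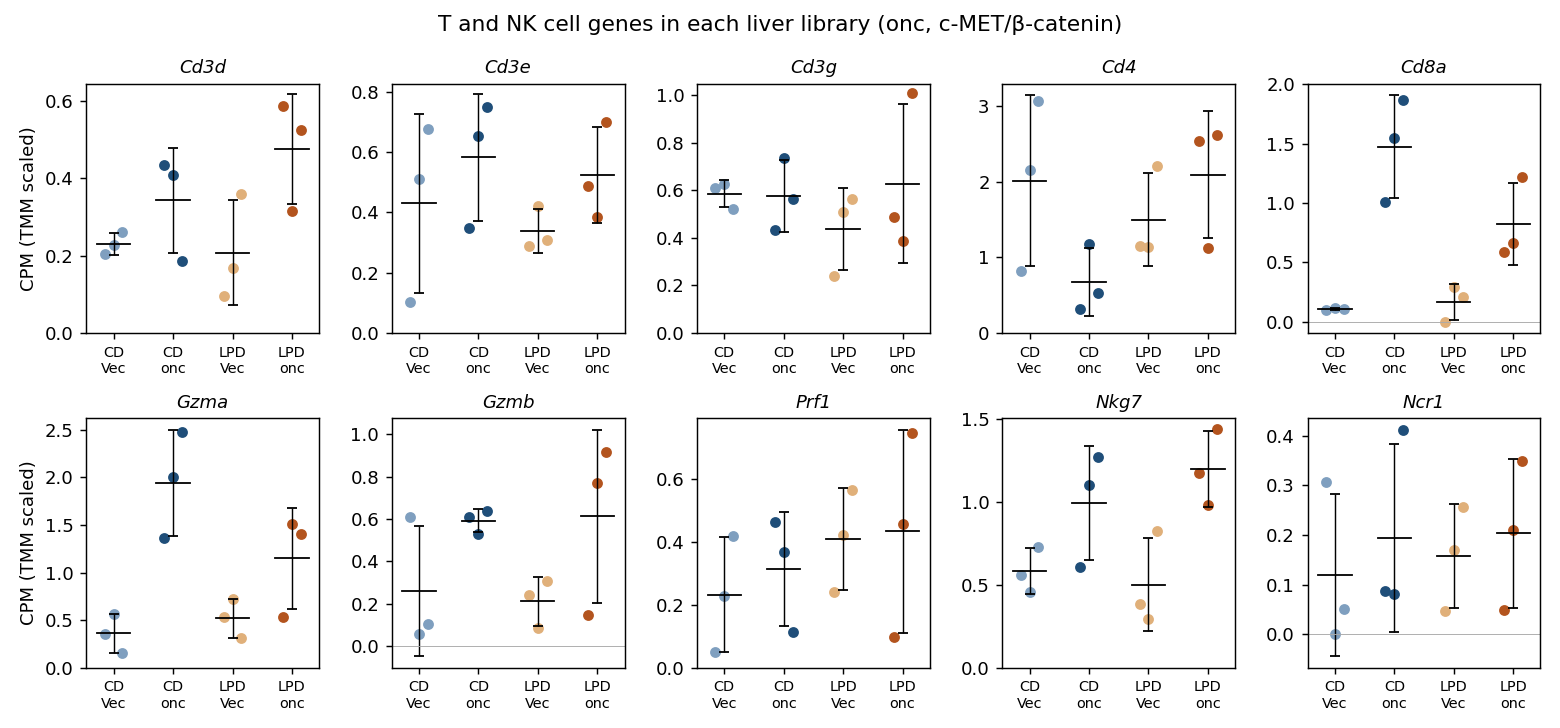
Levels of the 10 T and NK cell genes in each library, in CPM scaled by TMM on a linear axis of its own for each gene. Each point is 1 liver, horizontal lines are group means and bars are SD (n = 3). Cd8a and Gzma stand highest in CD c-MET/β-catenin livers, at means of 1.48 and 1.94 CPM, and the groups overlap for most other genes.

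The 300 bases around the starts of 9 of the 10 genes, from 250 before to 50 after the start, were read from RefSeq (GRCm38.p6). Cd4 had no entry. The 3 printed here are Cd8a and Gzma, which rose on CD, and Gzmb, which belongs to the same enzyme family as Gzma. Capitals mark the RUNX core TGTGGT, which reads ACCACA where it lies on the opposite strand. In Gzmb, capitals near the 3′ end of the window mark TTCNNNGAA, the interferon-γ activated sequence of STAT factors.
Cd8a, chr6:71373177-71373476, plus strand: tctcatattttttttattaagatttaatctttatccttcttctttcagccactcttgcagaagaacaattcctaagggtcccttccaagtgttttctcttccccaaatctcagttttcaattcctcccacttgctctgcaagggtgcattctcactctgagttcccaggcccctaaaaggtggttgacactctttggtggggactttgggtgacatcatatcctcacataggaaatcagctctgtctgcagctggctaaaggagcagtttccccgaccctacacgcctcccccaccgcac
Gzma, chr13:113100932-113101231, minus strand: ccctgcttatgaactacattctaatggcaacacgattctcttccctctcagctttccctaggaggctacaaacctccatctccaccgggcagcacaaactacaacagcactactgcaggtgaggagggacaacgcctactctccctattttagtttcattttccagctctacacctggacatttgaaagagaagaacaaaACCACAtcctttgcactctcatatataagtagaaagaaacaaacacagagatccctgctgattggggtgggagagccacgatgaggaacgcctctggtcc
Gzmb, chr14:56262285-56262584, minus strand: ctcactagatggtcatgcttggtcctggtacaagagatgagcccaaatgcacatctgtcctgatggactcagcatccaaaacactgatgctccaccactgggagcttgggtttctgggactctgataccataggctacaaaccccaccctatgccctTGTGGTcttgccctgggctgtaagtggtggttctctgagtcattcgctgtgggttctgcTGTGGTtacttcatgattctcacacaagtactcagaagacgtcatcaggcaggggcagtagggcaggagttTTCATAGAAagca

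The RUNX core was found in the windows of 5 of the 9 genes, which were the 5 cytotoxic and NK genes Gzma, Gzmb, Prf1, Nkg7 and Ncr1, and in none of the windows of Cd3d, Cd3e, Cd3g and Cd8a. Of 32817 promoter windows of the same length in RefSeq, 16.8% held it on either strand. The TCF/LEF core CTTTGA, bound by the partners of β-catenin, was in 1 of 9 windows, that of Cd3d, against 16% of all windows. The ETS core GGAAGT was in 3 of 9 (23.8% of all windows), TTCNNNGAA in 3 of 9 (8.29%), the E-box CANNTG in 9 of 9 (72.3%) and TATAAA in 0 of 9 (13.6%). The letters of the E-box and of TTCNNNGAA read the same on both strands. The 2 that overlapped each other were the ETS core and TTCNNNGAA in Cd3d. These matches describe letters in the windows and not binding.

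The CD3 genes are the common markers of T cells, and encode the delta, epsilon and gamma chains that carry the T cell receptor's signal. They lie side by side on mouse chromosome 9, where the annotated starts of Cd3d and Cd3g, on opposite strands, are 1355 bases apart. Cd3d had 4, 4 and 5 counts in CD Vec, 15, 10 and 5 in CD c-MET/β-catenin, 2, 4 and 7 in LPD Vec and 12, 9 and 12 in LPD c-MET/β-catenin livers. Cd3e had 2, 9 and 13 counts in CD Vec, 12, 16 and 20 in CD c-MET/β-catenin, 6, 10 and 6 in LPD Vec and 10, 11 and 16 in LPD c-MET/β-catenin livers. Cd3g had 12, 11 and 10 counts in CD Vec, 15, 18 and 15 in CD c-MET/β-catenin, 5, 12 and 11 in LPD Vec and 10, 11 and 23 in LPD c-MET/β-catenin livers. In CPM the groups overlapped for each of the 3 genes in every comparison.

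None of the CD3 genes was called in any comparison by edgeR. On CD, the log2 fold changes were 0.57 (SE 0.53, adjusted p = 0.428) for Cd3d, 0.42 (SE 0.54, adjusted p = 0.574) for Cd3e and -0.04 (SE 0.44, adjusted p = 0.96) for Cd3g. With a term for the runs Cd3d was -0.76 (adjusted p = 0.675), and by total counts Cd3g was 0.25. On LPD they were 1.18, 0.60 and 0.51, with adjusted p of 0.43, 0.811 and 0.801. Cd3e shares 135 of its 4080 exon bases with the antisense gene Gm48719. The strand setting of the read counting is not stated, so the reads of the pair cannot be told apart.

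Cd8a encodes the alpha chain of CD8, the co-receptor of cytotoxic T cells, and a subset of dendritic cells also carries it. Cd8a lies on chromosome 6 at chr6:71373427-71379173 (GRCm38, GENCODE M21, plus strand). It had 2 counts in each CD Vec library and 35, 38 and 50 in CD c-MET/β-catenin livers. LPD Vec livers had 0, 7 and 4 counts, where 0 of 22673323 counts allows up to 0.132 CPM before TMM scaling, and LPD c-MET/β-catenin livers had 12, 19 and 28. On both diets every library with oncogenes lay above every Vec library. The levels were 0.107 ± 0.00628 CPM (SD, n = 3) in CD Vec and 1.48 ± 0.435 CPM in CD c-MET/β-catenin livers, against 0.167 ± 0.152 and 0.826 ± 0.348 CPM on LPD.

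The log2 fold change of Cd8a on CD was 3.72 (SE 0.67, adjusted p = 0.0013). Because each CD Vec library had under 3 counts, this fitted value depends on the prior count. The ratio of summed counts, scaled by library size, was 13.5 (123 against 6 counts), with a 95% exact interval of 6.02 to 37.4 that covers counting error only. On LPD the log2 fold change was 2.24 (SE 0.63, adjusted p = 0.129), and the ratio of summed counts was 4.78 (95% exact interval 2.49 to 10.1). The call on CD held without each library in turn (adjusted p up to 0.00649) and was lost with a term for the runs, at 3.20 (adjusted p = 0.0797). Within the last run, the 1 library of CD Vec had 2 counts and that of CD c-MET/β-catenin had 50. This sets 1 library against 1, and Cd3d, Cd4 and Prf1 were lower there in the oncogene library, in CPM.

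Cd4 encodes the co-receptor of T helper cells, and macrophages and dendritic cells can also carry it. It had 16, 38 and 59 counts in CD Vec, 11, 29 and 14 in CD c-MET/β-catenin, 24, 27 and 43 in LPD Vec and 52, 32 and 60 in LPD c-MET/β-catenin livers. The means were 2.02 ± 1.14 CPM (SD, n = 3) in CD Vec, 0.675 ± 0.452 in CD c-MET/β-catenin, 1.5 ± 0.612 in LPD Vec and 2.10 ± 0.844 in LPD c-MET/β-catenin livers. The oncogene livers on CD thus had the lowest mean of the 4 groups, and their highest library, at 1.18 CPM, overlapped the lowest of each other group.

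The log2 fold change of Cd4 on CD was -1.60 (SE 0.58, adjusted p = 0.0493), at the edge of the threshold. The call was lost in 9 of 12 fits that left out 1 library, with adjusted p from 0.02 to 0.188 over the 12, and in 5 of 7 other alternatives, with adjusted p up to 0.175. Its direction was the same in all of these fits. On LPD the log2 fold change was 0.48 (SE 0.55, adjusted p = 0.865).

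The counts of Cd8a and Cd4 can be set against each other within a library, which removes the scaling between libraries. Of the reads of Cd4 and Cd8a together, Cd8a made 11.1%, 5.0% and 3.28% in CD Vec and 76.1%, 56.7% and 78.1% in CD c-MET/β-catenin livers. On LPD it made 0.0%, 20.6% and 8.51% in Vec and 18.8%, 37.3% and 31.8% in c-MET/β-catenin livers. The share in each CD c-MET/β-catenin library exceeded that in every other library, and the 2 LPD groups overlapped. As this share was formed from genes with known results, it was not tested. Its counts are small, with between 18 and 88 reads in a library.

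Granzyme A, encoded by Gzma, was the most abundant of the effector genes in oncogene livers on CD. It lies on chromosome 13 at chr13:113093825-113100981 (GRCm38, GENCODE M21, minus strand). It had 7, 10 and 3 counts in CD Vec, 47, 49 and 66 in CD c-MET/β-catenin, 11, 17 and 6 in LPD Vec and 11, 43 and 32 in LPD c-MET/β-catenin livers. On CD all oncogene libraries lay above all Vec libraries, whereas on LPD the oncogene replicate 1 lay within the Vec range. The means were 0.36 ± 0.206 CPM (SD, n = 3) and 1.94 ± 0.559 CPM on CD, against 0.518 ± 0.205 and 1.15 ± 0.532 CPM on LPD.

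The log2 fold change of Gzma on CD was 2.42 (SE 0.52, adjusted p = 0.00364), and it stayed called in all 12 fits without 1 library (adjusted p up to 0.015) and in all 7 other alternatives (adjusted p up to 0.0417). On LPD it was 1.14 (SE 0.50, adjusted p = 0.417). Within the last run, Gzma had 3 counts in the 1 CD Vec library and 66 in the 1 CD c-MET/β-catenin library.

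Granzyme B, encoded by Gzmb, cuts and activates caspases in the target cell. Its counts were 12, 1 and 2 in CD Vec, 21, 13 and 17 in CD c-MET/β-catenin, 5, 2 and 6 in LPD Vec and 3, 22 and 21 in LPD c-MET/β-catenin livers. CD Vec replicate 1 stood near the oncogene livers, and LPD c-MET/β-catenin replicate 1 among the Vec livers. On CD the log2 fold change was 1.16 (SE 0.75, adjusted p = 0.257), and without CD Vec replicate 1 it was 2.79 (adjusted p = 0.0332), so that 1 library decided this call. On LPD it was 1.57 (SE 0.77, adjusted p = 0.493).

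Perforin, encoded by Prf1, forms the pores through which granzymes enter. Prf1 had 1, 4 and 8 counts in CD Vec, 16, 9 and 3 in CD c-MET/β-catenin, 5, 10 and 11 in LPD Vec and 2, 13 and 17 in LPD c-MET/β-catenin livers. High and low libraries occurred in every group, and the log2 fold changes were 0.46 (SE 0.79, adjusted p = 0.682) on CD and 0.10 (SE 0.70, adjusted p = 0.983) on LPD. With a term for the runs they were -1.69 (adjusted p = 0.471) and -0.23.

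Nkg7, whose product sits in the membrane of cytotoxic granules, had 11, 8 and 14 counts in CD Vec, 21, 27 and 34 in CD c-MET/β-catenin, 8, 7 and 16 in LPD Vec and 24, 28 and 33 in LPD c-MET/β-catenin livers. Raw counts were higher in every oncogene library than in any Vec library of its diet. After scaling, the groups overlapped on CD, where replicate 1 of the oncogene livers was the most deeply sequenced library, and did not overlap on LPD. The log2 fold changes were 0.75 (SE 0.43, adjusted p = 0.194) on CD and 1.27 (SE 0.43, adjusted p = 0.24) on LPD.

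Ncr1 encodes NKp46, an activating receptor that is the most specific NK cell marker of the 10. It had 6, 0 and 1 counts in CD Vec, 3, 2 and 11 in CD c-MET/β-catenin, 1, 4 and 5 in LPD Vec and 1, 6 and 8 in LPD c-MET/β-catenin livers. All 4 groups overlapped. Ncr1 failed the filter on low counts. In the fit without that filter its log2 fold changes were 0.62 (SE 1.02, adjusted p = 0.709) on CD and 0.38 (SE 0.98, adjusted p = 0.998) on LPD. The ratio of summed counts was 1.5 (95% exact interval 0.585 to 4.32) on CD and 1.34 (0.562 to 3.33) on LPD, counting error only.

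The effect of dietary protein was tested in Vec and in oncogene livers. Background percents here and below are those of edgeR, and none is given for the counts of DESeq2. In Vec livers 0 of the 9 tested genes were called by edgeR (background 0.308%), 0 had an unadjusted p under 0.05 (background 9.87%), and DESeq2 called 0. Their log2 fold changes of LPD over CD lay between -0.43 for Cd4 and 0.81 for Prf1, with a median of -0.24 beside -0.03 for all tested genes, and all 10 genes overlapped between the groups, where 8.13% of all tested genes were separated with LPD higher and 9.02% with LPD lower.

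In c-MET/β-catenin livers, 0 of 9 were called for diet by edgeR, at a background of 20%, of which 8.66% were higher and 11.3% lower on LPD. Cd4 alone had an unadjusted p under 0.05 (background 33.7%), and DESeq2 called 1, also Cd4. The largest difference was that of Cd4, at 1.65 (SE 0.58, adjusted p = 0.0638), with LPD higher. In DESeq2 it was 1.64 (adjusted p = 0.0258), and without CD c-MET/β-catenin replicate 2 it was 2.31 (adjusted p = 0.0307). Cd8a was at -0.83 (SE 0.50, adjusted p = 0.271) and Gzma at -0.74 (SE 0.45, adjusted p = 0.278), with the lower mean on LPD in each. All 10 genes overlapped between the 2 groups, where 19.2% of all tested genes were separated with LPD higher and 20.1% with LPD lower. This comparison shares the CD c-MET/β-catenin libraries with the oncogene effect on CD, so the opposite signs of Cd4, Cd8a and Gzma in the 2 comparisons are not independent of each other.

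On LPD, the oncogene livers gave 0 of 9 calls by edgeR (background 1.32%, of which 1.15% higher). All 9 log2 fold changes were above 0, as were 51.6% of those of all tested genes, and their median was 1.14 beside 0.01 for all. An unadjusted p under 0.05 was found for 4 of 9, Cd8a, Nkg7, Gzma and Cd3d, where the background was 11.1%. DESeq2, with no share over all genes beside it, called 1, Cd8a, at 2.27 (adjusted p = 0.031). The groups were separated for 2 of the 9 tested genes, Cd8a and Nkg7 (background 13.5%), with the oncogene group higher, and for 0 of 9 in the opposite direction (background 11.6%).

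Whether the oncogene effect differed between the diets was tested by the interaction, the effect on LPD minus that on CD. By edgeR 0 of 9 genes were called (background 8.91%), 1 had an unadjusted p under 0.05, Cd4 (background 25.8%), and DESeq2 called 0. The interaction was 2.08 (SE 0.80, adjusted p = 0.124) for Cd4, -1.48 (SE 0.99, adjusted p = 0.377) for Cd8a and -1.28 (SE 0.72, adjusted p = 0.289) for Gzma. Without LPD Vec replicate 2 the interaction of Cd8a was -0.75, and over all 12 fits without 1 library it lay between -2.05 and -0.75, that of Gzma between -1.75 and -0.93 and that of Cd4 between 1.62 and 2.74. A difference between the diets was therefore not shown for Cd8a or Gzma, although both were called on CD and not on LPD.

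**Figure D2:**
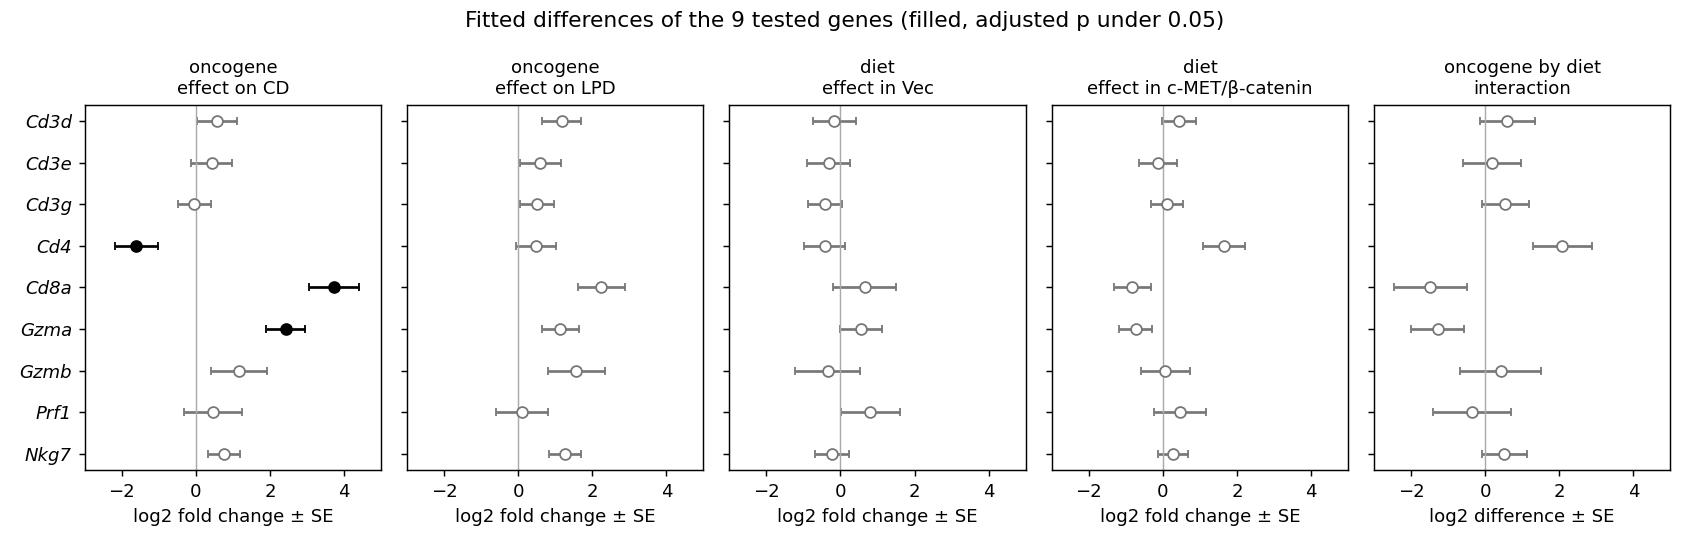
Log2 fold changes of the 9 tested T and NK cell genes in the 5 comparisons, with bars of 1 SE, where filled points have an adjusted p under 0.05. Cd8a at 3.72, Gzma at 2.42 and Cd4 at -1.60 are the 3 filled points, all in the oncogene effect on CD.

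Levels were compared between genes per kilobase of exon. In CD Vec livers the order began with Nkg7 at 0.636 ± 0.151 RPKM (SD, n = 3), Cd4 at 0.50 ± 0.282 and Gzma at 0.358 ± 0.205, which overlap in their spread, and ended with Cd8a at 0.0293 ± 0.00173. In CD c-MET/β-catenin livers Gzma came first at 1.93 ± 0.555 RPKM, ahead of Nkg7 at 1.09 ± 0.379, Gzmb at 0.412 ± 0.0381 and Cd8a at 0.406 ± 0.12. The last pair did not differ beyond their spread, nor did the 6 genes below them, from Cd3d at 0.189 to Prf1 at 0.121 RPKM. Cd8a moved from rank 10 to rank 4 and Cd4 from rank 2 to rank 7 between these groups. In LPD Vec livers Nkg7, Gzma and Cd4 led at 0.547, 0.515 and 0.372 RPKM, and in LPD c-MET/β-catenin livers the same genes led in the same order, at 1.31 ± 0.253, 1.14 ± 0.529 and 0.52 ± 0.209 RPKM. Cd8a was rank 10 in LPD Vec livers and rank 6 in LPD c-MET/β-catenin livers.

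Ptprc encodes CD45, the surface phosphatase of all leukocytes, and gives a scale for how many reads came from leukocytes. It had 135, 89 and 131 counts in CD Vec, 336, 309 and 323 in CD c-MET/β-catenin, 136, 163 and 151 in LPD Vec and 194, 358 and 369 in LPD c-MET/β-catenin livers. Its log2 fold change was 0.87 on CD (adjusted p = 0.00754) and 0.85 on LPD (adjusted p = 0.0786). The 10 T and NK genes together had 0.804 ± 0.232 counts per Ptprc count (SD, n = 3) in CD Vec, 0.665 ± 0.0742 in CD c-MET/β-catenin, 0.623 ± 0.135 in LPD Vec and 0.642 ± 0.0877 in LPD c-MET/β-catenin livers, and all groups overlapped.

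Since Ptprc was itself higher in the oncogene livers, the division lowers every gene there alike. The CD3 genes together had between 0.0866 and 0.27 counts per Ptprc count with all groups overlapping, and a mean of 0.206 in CD Vec against 0.13 in CD c-MET/β-catenin livers. Cd8a had 0.0148 to 0.0225 counts per Ptprc count in CD Vec and 0.104 to 0.155 in CD c-MET/β-catenin livers, and 0.0 to 0.0429 against 0.0531 to 0.0759 on LPD. Cd4 had 0.119 to 0.45 in CD Vec and 0.0327 to 0.0939 in CD c-MET/β-catenin livers, groups that overlap in CPM. The 5 cytotoxic and NK genes had 0.214 to 0.274 in CD Vec and 0.321 to 0.406 in CD c-MET/β-catenin livers, and overlapped on LPD. These ratios carry no test.

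**Figure D3:**
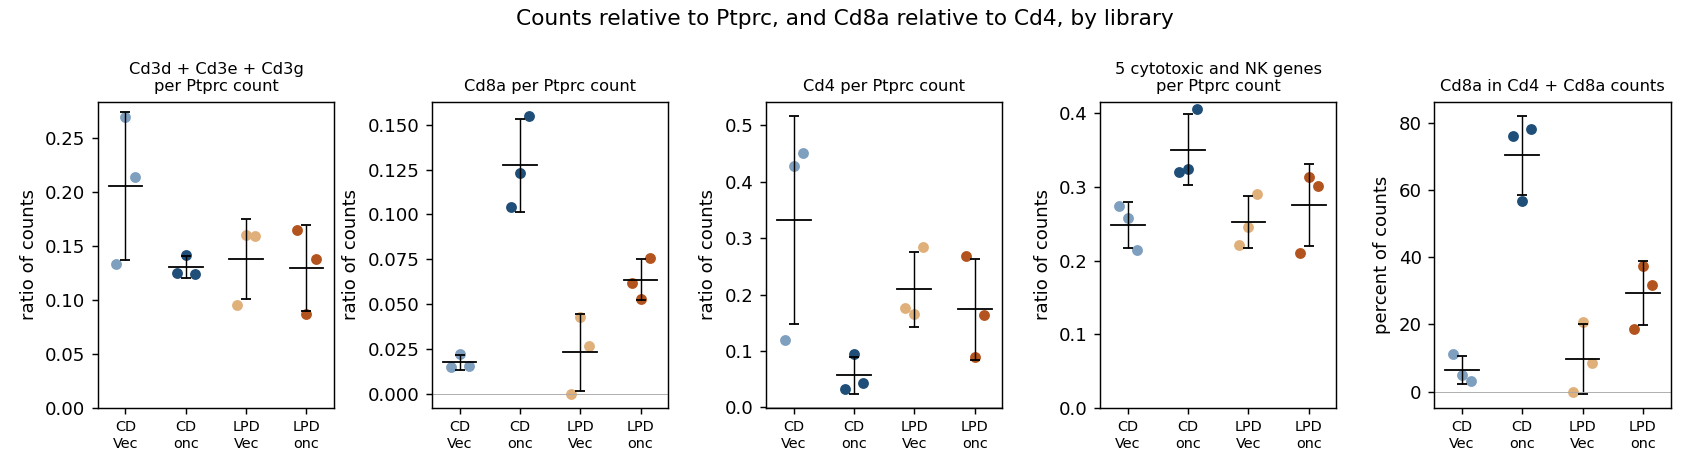
Counts of the CD3 genes, Cd8a, Cd4 and the 5 cytotoxic and NK genes per Ptprc count, and Cd8a as a percent of the counts of Cd4 and Cd8a, for each library (points), with group means (lines) and SD (bars, n = 3). The CD c-MET/β-catenin livers lie above the other groups for Cd8a, at 0.104 to 0.155 per Ptprc count and at 56.7% to 78.1% of Cd4 and Cd8a counts.

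Other genes of the T cell receptor complex and its signalling chain were listed beside the CD3 genes. Of 19 such genes, 10 were tested, and on CD 1 was called higher (background 18.7%) and 0 lower (background 16.7%), with a median of 0.53. The one called was Trac, the constant region of the receptor's alpha chain, with 3, 2 and 8 counts in CD Vec, 19, 20 and 22 in CD c-MET/β-catenin, 9, 13 and 6 in LPD Vec and 10, 17 and 27 in LPD c-MET/β-catenin livers. The groups did not overlap on CD, and its log2 fold change there was 1.64 (SE 0.53, adjusted p = 0.0303). With a term for the runs, and without CD Vec replicate 1 or 2 or CD c-MET/β-catenin replicate 2 or 3, 0 genes of the list were called. On LPD 0 of 10 were called (background 1.32%), with a median of 0.86.

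Zap70, the kinase recruited by the CD3 chains, was called between the diets in oncogene livers, at -2.02 (SE 0.49, adjusted p = 0.0143). Its counts were 190, 246 and 289 in CD Vec, 489, 67 and 201 in CD c-MET/β-catenin, 53, 70 and 88 in LPD Vec and 37, 43 and 62 in LPD c-MET/β-catenin livers. These exceed the counts of any CD3 gene in the same libraries, and LPD libraries lay below CD libraries except for CD c-MET/β-catenin replicate 2. When replicate 1 or 2 of these LPD livers, or replicate 1 of these CD livers, was left out, 0 genes of the list were called between the diets.

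Cd8b1 and Cd247 did not pass the filter on low counts. Cd8b1 encodes the beta chain that pairs with CD8 alpha on T cells and is not carried by the dendritic cells that carry Cd8a. It had 3, 0 and 4 counts in CD Vec, 9, 19 and 13 in CD c-MET/β-catenin, 2, 2 and 5 in LPD Vec and 3, 6 and 8 in LPD c-MET/β-catenin livers. On CD its oncogene libraries lay above its Vec libraries, and the ratio of summed counts was 3.85 (95% exact interval 1.71 to 10.2, counting error only), beside 13.5 for Cd8a. In the fit without the filter the log2 fold change was 1.98 (SE 0.76, adjusted p = 0.0729).

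Cd247 encodes the zeta chain, which carries the receptor's signal in T cells and that of NKp46 in NK cells. It had 4, 0 and 1 counts in CD Vec, 11, 5 and 7 in CD c-MET/β-catenin, 0, 8 and 8 in LPD Vec and 13, 11 and 19 in LPD c-MET/β-catenin livers. Its highest counts were on LPD with oncogenes, and in the fit without the filter its log2 fold changes were 1.53 (adjusted p = 0.288) on CD and 1.28 (adjusted p = 0.754) on LPD.

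**Figure D4:**
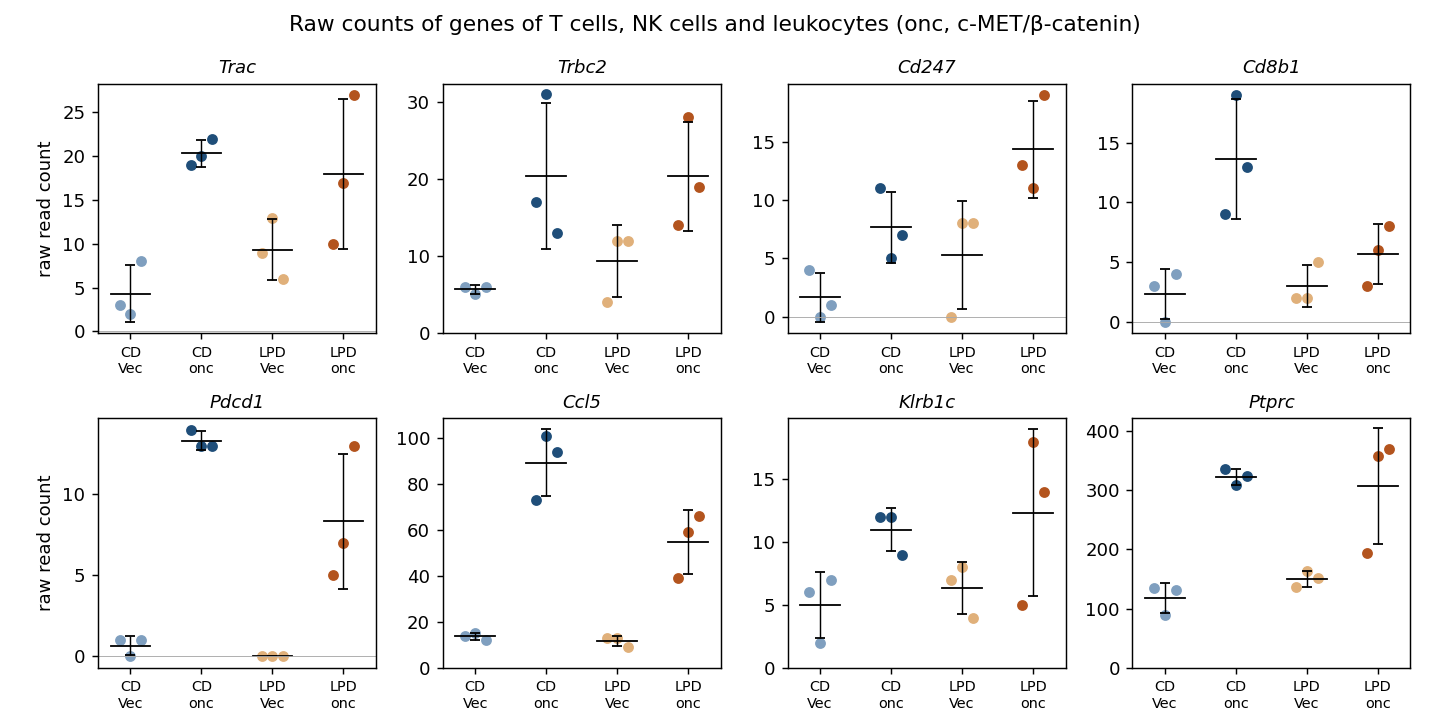
Raw read counts of Trac, Trbc2, Cd247, Cd8b1, Pdcd1, Ccl5, Klrb1c and Ptprc in each library (points), with group means (lines) and SD (bars, n = 3). Pdcd1 has at most 1 count in any Vec library and 5 to 14 in the oncogene libraries, and Ccl5 has 9 to 15 counts in Vec and 39 to 101 in oncogene libraries.

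Of the checkpoint and activation genes of T cells, 7 were tested among 11 listed, and 4 were higher (background 18.7%) and 1 lower (background 16.7%) on CD. Pdcd1 encodes PD-1, an inhibitory receptor of activated T cells, and had 1, 0 and 1 counts in CD Vec, 14, 13 and 13 in CD c-MET/β-catenin, 0, 0 and 0 in LPD Vec and 5, 7 and 13 in LPD c-MET/β-catenin livers. It was called by edgeR on CD (adjusted p = 0.00427) and on LPD (adjusted p = 0.0273). The ratio of summed counts on CD was 13.1, with a 95% exact interval of 3.41 to 112 that, like the others here, covers counting error only. On LPD the ratio was 7.43 against a floor of 3 counts over the LPD Vec group, a value that leaves out counting error.

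Havcr2, which encodes TIM-3 and is also made by macrophages and dendritic cells, was higher on CD, from 1, 3 and 2 counts to 53, 22 and 21, by edgeR (adjusted p = 0.000432), with a ratio of summed counts of 10.5 (95% exact interval 4.66 to 29.4, counting error only). Tnfrsf18 and Entpd1 were the other 2 called higher on CD. Havcr2 had 9, 9 and 10 counts in LPD Vec and 17, 14 and 14 in LPD c-MET/β-catenin livers. Its ratio of LPD over CD was 4.11 in Vec (95% exact interval 1.67 to 12.1) and 0.56 in oncogene livers (0.384 to 0.806), counting error only. Il2ra, the alpha chain of the interleukin-2 receptor, was lower on CD, from 8, 8 and 13 counts to 3, 3 and 2, by edgeR (adjusted p = 0.00254), with a ratio of 0.181 (95% exact interval 0.0716 to 0.406, counting error only). It was higher on LPD than on CD in oncogene livers, with 14, 15 and 14 counts there (edgeR adjusted p = 0.00304) and a ratio of 6.42 (95% exact interval 2.99 to 15.8, counting error only). On LPD Pdcd1 was the only 1 of the 7 that was called (background 1.32%), and 0 were called without any 1 of the LPD Vec libraries. With a term for the runs, 2 genes of the list were called on CD.

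Of the transcription factors and naive or memory genes of T cells, 7 of 14 were tested, and 1 was higher (background 18.7%) and 0 lower (background 16.7%) on CD. Tcf7, which encodes the factor TCF-1 and is a known target of β-catenin signaling, had 58, 54 and 78 counts in CD Vec, 1166, 930 and 761 in CD c-MET/β-catenin, 151, 188 and 181 in LPD Vec and 237, 265 and 186 in LPD c-MET/β-catenin livers. Its log2 fold change on CD was 3.31 (SE 0.20, adjusted p = 5.91e-06), and it was called for diet in both Vec (1.28, lost without LPD Vec replicate 2 or 3 or CD Vec replicate 2) and oncogene livers (-1.79). Its counts were far above those of the CD3 genes.

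Among cytotoxic effectors outside the 10 genes, 4 of 11 were tested, and 1 was called higher on CD (background 18.7%) and on LPD (background 1.15%). Ccl5, a chemokine of activated T and NK cells, was called on both diets, at 2.14 (SE 0.32, adjusted p = 0.000419) on CD and 2.06 (SE 0.33, adjusted p = 0.0103) on LPD. It had 14, 15 and 12 counts in CD Vec, 73, 101 and 94 in CD c-MET/β-catenin, 13, 13 and 9 in LPD Vec and 39, 59 and 66 in LPD c-MET/β-catenin livers, with no overlap on either diet. The call on LPD was lost without any 1 of the LPD Vec libraries. The other 3 tested were not called on either diet.

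NK cell receptors and other NK genes gave 0 calls of 4 tested among 15 listed in any comparison. Of all tested genes 35.4% were called on CD, 1.32% on LPD, 0.308% for diet in Vec, 20% for diet with oncogenes and 8.91% for the interaction. With 4 genes, 0 calls does not set the list apart, and its medians were 0.55 on CD and 0.77 on LPD. Klrb1c, which encodes the receptor NK1.1, had 6, 2 and 7 counts in CD Vec, 12, 12 and 9 in CD c-MET/β-catenin, 7, 8 and 4 in LPD Vec and 5, 18 and 14 in LPD c-MET/β-catenin livers. Its log2 fold change on CD was 0.55 (adjusted p = 0.43), and most other genes of the list were too scarce to test.

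Markers of other leukocytes were compared in the same way. Of 10 pan-leukocyte genes 9 were called higher on CD (background 18.7%) and 0 on LPD (background 1.15%), with medians of 1.19 on CD and 0.785 on LPD, led by Cytip at 1.92, Laptm5 at 1.60 and Coro1a at 1.47. Their summed level was 25 to 48.2 CPM in CD Vec, 88.8 to 100 in CD c-MET/β-catenin, 37.8 to 45.1 in LPD Vec and 57.6 to 85.5 in LPD c-MET/β-catenin livers. The summed level of the 10 T and NK genes was 3.72 to 6.09 CPM, 5.66 to 8.8 CPM, 3.21 to 5.9 CPM and 6.69 to 10.9 CPM in the same order. With a term for the runs, 0 of the 10 pan-leukocyte genes were called on CD, with a median of 0.92, and in the fit of the 2 CD groups alone 4 were called. Cytip had 23, 2 and 8 counts in CD Vec and 142, 36 and 25 in CD c-MET/β-catenin livers. Its groups overlapped in CPM, and replicate 1 held most of its reads in the oncogene livers.

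Of Kupffer cell and macrophage genes, 3 of 10 were higher on CD, Lyz2 at 1.93, Cd68 at 1.71 and C1qa at 1.33, where 18.7% of all tested genes were, and 0 of 10 were called on LPD (background 1.32%). Their summed level was 147 to 313 CPM in CD Vec, 376 to 503 in CD c-MET/β-catenin, 214 to 275 in LPD Vec and 303 to 520 in LPD c-MET/β-catenin livers. Between the diets in oncogene livers 0 of the 10 were higher and 2 lower on LPD, Lyz2 at -0.94 and Cd68 at -0.90 (background 8.66% higher and 11.3% lower). Of the 10 fold changes 5 were above 0, with a median of 0.08. Of dendritic cell genes, 1 of 7 tested was higher on CD (background 18.7%), Itgax at 2.28, and 2 were higher on LPD (background 1.15%), Itgax at 1.92 (adjusted p = 0.0344) and Xcr1 at 1.78 (adjusted p = 0.048). Both calls on LPD were lost without any 1 of the LPD Vec libraries, or when replicate 2 of either oncogene group or replicate 3 of the LPD one was left out. Xcr1 marks the dendritic cells that can carry Cd8a. The summed level of the dendritic list was 7.03 to 8.38 CPM in CD Vec, 10.5 to 12.9 in CD c-MET/β-catenin, 5.18 to 7.43 in LPD Vec and 8.4 to 14.6 in LPD c-MET/β-catenin livers, and none of its 9 genes was at 0 in all libraries of a group. The part of these cells in the Cd8a, Cd4 and Havcr2 results was not tested.

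Neutrophil, mast cell and basophil genes were scarce, with 3 of 10 tested, of which 2 were higher on CD (background 18.7%). S100a8 and S100a9, the calprotectin genes of neutrophils, were higher on CD at 2.20 and 1.95, and lower on LPD than on CD in oncogene livers at -2.28 and -2.21, and all of these calls were lost with a term for the runs. CD c-MET/β-catenin replicate 1 held the most reads, with 159, 54 and 58 counts of S100a8 and 282, 81 and 70 of S100a9 in that group. Csf3r, the third gene tested, was not called in either comparison, at 0.12 on CD (adjusted p = 0.839) and, for LPD over CD with oncogenes, at 0.10 (adjusted p = 0.882), where 11.3% of all tested genes were lower on LPD. The summed level was 3.3 to 5.21 CPM in CD Vec and 8.89 to 18.0 in CD c-MET/β-catenin livers, while LPD groups stayed between 3.07 and 6.17, and Ly6g, a defining neutrophil gene, was at 0 in every library of 3 groups. B and plasma cell genes gave 0 calls of 6 on CD (background 18.7% higher and 16.7% lower). For LPD over CD in oncogene livers 1 was higher (background 8.66%), Mzb1 at 2.52 (adjusted p = 0.0233). That call was lost when replicate 3 of the LPD oncogene livers or replicate 1 or 2 of the CD oncogene livers was left out. Of 8 hepatocyte genes, 3 were lower on CD (background 16.7%), Serpina1c at -1.99, Ttr at -0.87 and Apob at -0.58, and the summed level went from 109257.9 to 114658.2 CPM down to 93561.3 to 97815.9 CPM. In oncogene livers the diet calls of that list were mixed, with Serpina1c at 1.51 and Apob at 0.50 higher on LPD (background 8.66%) and Tat at -0.97 and Apoa1 at -0.86 lower (background 11.3%).

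**Figure D5:**
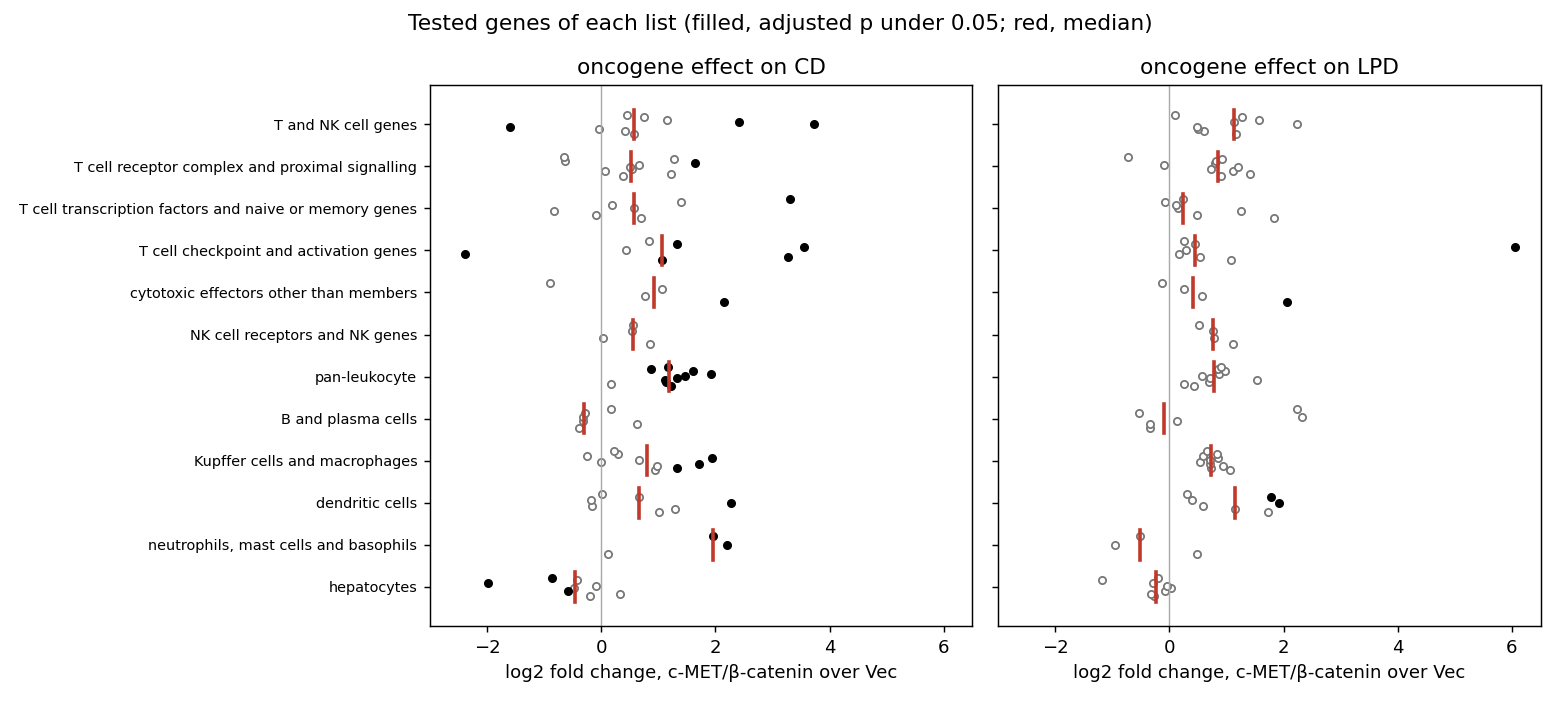
Log2 fold changes of c-MET/β-catenin over Vec on CD (left) and LPD (right) for the tested genes of each list, with filled points at an adjusted p under 0.05 and red lines at list medians. The pan-leukocyte genes lie above 0 on both diets, with 9 of 10 filled on CD and 0 on LPD, while the 9 T and NK genes spread from -1.60 to 3.72 on CD.

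The T and NK genes did not vary as 1 block across the 12 libraries. As a description, over libraries that share their groups and depth, the Pearson correlation of log2 CPM was highest between Cd8a and Gzma at 0.835 and lowest between Cd4 and Gzma at -0.541. Between pairs of CD3 genes it was 0.302 to 0.517, at counts where sampling alone scatters the values. The genes most like the mean of Gzma, Gzmb, Prf1 and Nkg7 were Il10rb at 0.945, Ptprc at 0.935, Cd48 at 0.923, Lrrc25 at 0.922, Gm8995 at 0.918, Arhgap30 at 0.917, Evi2b at 0.915 and Ifi202b at 0.913, where Ptprc and Cd48 are leukocyte surface genes. Those most like the mean of the CD3 genes were Tmem68, Iffo1, Pilrb1, Arl16, Sectm1a, Cacul1, Irgm2 and Rinl, at 0.799 to 0.875, and none of them belonged to the lists of T or NK cell genes.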

How the data were processed

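Bulk RNA-seq was performed on livers of 12 mice, n = 3 in each of 4 groups, taken from the titles in the labels, where the Vec groups are titled WT. The authors deposited integer read counts per Entrez gene, made with HISAT2 on mm10 and featureCounts; versions, the strand setting and the handling of multi-mapping reads are not given in the sources used here. Where column names have HPD the labels have chow, which was kept. The labels describe ribosomal RNA depletion, and the study's methods name a stranded kit with mRNA selection. Of 27179 identifiers, 25275 were named by RefSeq and 18 by GENCODE M21. All 12 columns were mapped, and the 1886 identifiers without a name stayed in the tests.

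Counts were tested in R 4.3.3 with edgeR 4.0.16 (TMM factors, filterByExpr, robust quasi-likelihood test, all 4 groups in 1 fit, Benjamini-Hochberg over 13947 genes, adjusted p threshold 0.05, SE from the fold change and the F statistic). The code was tested on simulated data with 200 genes changed 4-fold on CD, where 86% of the changed genes were called and 3.91% of calls were false. With changed genes of a mean under 1 CPM, 26% were called and 8.77% of calls were false. A gene not called at such low levels is thus not shown to be unchanged. Log2 CPM for correlations used a prior count of 2, and RPKM used union exon lengths. Ncr1 was not tested and entered no correlation. Alternatives were DESeq2 1.42.0, other scalings, no filter, a replicate block, a run term, fits of 2 groups and fits without 1 library. Exact intervals are conditional binomial at 95%. The genes and lists were chosen with earlier results of these data known. Other genes were named by rule, up to 3 called genes of largest absolute change per list for the oncogene effect on CD and for LPD over CD with oncogenes, those called in any other comparison, Ptprc, Cd247, Cd8b1 and Klrb1c, and the 8 genes of at least 1 CPM most like each mean. Some listed genes are not reported here and were left out of the list counts, though not of the fits. Tnfrsf18, Entpd1, Trbc2 and Csf3r were added after their values were seen.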

Additional observations from a re-analysis of the deposited data

Results flagged for a closer look

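None of the 9 tested T and NK cell genes had an oncogene effect that differed between the diets by the interaction in edgeR. Of the other genes named, 7 had an oncogene effect that differed between CD and LPD by the interaction in edgeR, given as the log2 effect on LPD minus that on CD. The effect was smaller on LPD for Tcf7 at -3.06 (adjusted p = 0.000373), Havcr2 at -2.74 (adjusted p = 0.0268) and Lyz2 at -1.09 (adjusted p = 0.0422). S100a8 at -3.16 (adjusted p = 0.0266) and S100a9 at -2.47 (adjusted p = 0.0317) were above 0 on CD, at 2.20 and 1.95, and below 0 on LPD, at -0.96 and -0.52, where neither was called. It was less negative or above 0 on LPD for Il2ra at 2.56 (adjusted p = 0.0277) and Serpina1c at 1.71 (adjusted p = 0.0165). Across all tested genes 8.91% had such an interaction, but a called interaction was itself a ground for naming a gene. The 7 are therefore no share to set beside it. Without LPD Vec replicate 2 the calls of Havcr2, Il2ra, S100a8, S100a9, Lyz2 and Serpina1c, which are 6 of the 7, were lost, and with a run term 1 gene of the transcription factor list and 0 of the other lists had a called interaction.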

How the results depend on the processing

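On CD 3 of the T and NK genes were called, 2 by total counts, without a filter, with a replicate block or with 2 groups only, 1 with a run term, and 2 to 4 without 1 library. On LPD 0 were called, and 1 by DESeq2. Between the diets with oncogenes 0 were called, 1 by DESeq2, and 0 to 1 without 1 library, the 1 being Cd4 without CD Vec replicate 1 or without CD c-MET/β-catenin replicate 2. Counts for diet in Vec livers and for the interaction were 0 under every alternative. The share of all tested genes called was also lower on CD with a run term, and it is not given for the other settings. These changes therefore do not set the T and NK genes apart, and their cause was not tested.

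Some values turned in sign, none of them past the threshold in either fit. By total counts, which move the median of all genes on CD to 0.278, on LPD to 0.121 and for the interaction to -0.156, Cd3g on CD was 0.25, Gzmb between the diets with oncogenes -0.0049 and Cd3e for the interaction -0.0094. With a run term, Cd3d was -0.76 and Prf1 -1.69 on CD, Prf1 was -0.23 on LPD, Gzmb was 0.0057 for diet in Vec, Gzmb was -0.031 and Nkg7 -0.089 between the diets with oncogenes, and Gzmb was -0.037 and Prf1 1.47 for the interaction. Without 1 library, ranges that crossed 0 on CD were -0.045 to 0.94 for Cd3e, -0.24 to 0.14 for Cd3g and -0.018 to 1.22 for Prf1, and on LPD -0.47 to 0.54 for Prf1 and -0.011 to 0.78 for Cd3g. For diet in Vec they were -0.76 to 0.17 for Cd3d, -0.084 to 1.21 for Cd8a, -0.79 to 1.29 for Gzmb, -0.78 to 0.041 for Nkg7, -0.79 to 0.19 for Cd3e and -0.81 to 0.024 for Cd4. Between the diets with oncogenes they were -0.42 to 0.088 for Cd3e, -0.30 to 0.51 for Gzmb, -0.39 to 0.39 for Cd3g and -0.12 to 0.89 for Prf1, and for the interaction -1.22 to 0.86 for Gzmb, -1.11 to 0.12 for Prf1 and -0.34 to 0.65 for Cd3e.

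Replicate numbers are shared by the groups, but libraries of the same number did not deviate together (correlations of -0.183 to 0.167, median -0.02, against -0.221 to 0.245 for different numbers). With a replicate block 2 genes were called on CD, as Cd4 was at -1.52 (adjusted p = 0.0638), and 0 in each other comparison. Of the other lists, calls on CD went from 3 to 6 for Kupffer cells and macrophages, from 1 to 3 for dendritic cells and from 1 to 2 for the T cell receptor complex by total counts. With a run term they went from 9 to 0 for pan-leukocyte genes, from 5 to 2 for checkpoint genes, from 3 to 1 for hepatocytes and from 2 to 0 for neutrophils. Fewer of all tested genes were called on CD with a run term too, so these losses alone do not set the lists apart. With the run term an unadjusted edgeR p of 0.00811, that of Cd8a, became 0.0797 once adjusted. In the main fit one of 0.0174, that of Cd4, became 0.0493. The depth behind the T and NK genes was at most 66 counts in a library.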

Other observations

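A further 4 lymphocyte genes, chosen after their values were seen, are given here as values. They come from 36 genes of the T and NK cell lists that failed the filter and had a value in the fit without it, of which 28 were above 0 and 8 below on CD, with 3 called higher (Trdc, Tigit and Tnfrsf9) and 0 lower. Of all 6213 genes that failed the filter and had a value in that fit, 56.2% were above 0, 3.22% were called higher and 0.74% lower. Among those below 0 were Themis at -1.11 and Gzmm at -1.53. Trdc, the constant region of the delta chain of γδ T cells, had 2, 0 and 6 counts in CD Vec, 38, 22 and 5 in CD c-MET/β-catenin, 4, 4 and 8 in LPD Vec and 5, 5 and 3 in LPD c-MET/β-catenin livers. The high values were those of CD c-MET/β-catenin replicates 1 and 2, and replicate 3 lay within the range of the other groups. Klrd1, which encodes the NK and T cell receptor CD94, had 2, 2 and 3 counts in CD Vec and 11, 14 and 8 in CD c-MET/β-catenin livers, against 2, 6 and 5 and 4, 4 and 10 on LPD. Tigit, an inhibitory receptor, had 0, 0 and 0 counts in CD Vec and 15, 5 and 4 in CD c-MET/β-catenin livers. Against a floor of 3 counts over the Vec group its ratio was 5.26, a value that leaves out counting error. On LPD it had 0, 1 and 0 against 2, 4 and 5 counts, a ratio of summed counts of 9.8 (95% exact interval 1.42 to 422, counting error only). Tnfrsf9, which encodes the activation receptor 4-1BB, had 1, 0 and 0 counts in CD Vec and 99, 7 and 12 in CD c-MET/β-catenin livers, so that 1 library held most of its reads. On LPD it had 1, 0 and 0 against 3, 6 and 2 counts, with the same ratio and interval as Tigit, and between the diets with oncogenes the 11 counts on LPD stood against 118 on CD, of which 99 were in that 1 library.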
